A study of Danio rerio with 12 samples.

Results

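Phototransduction is the chain of proteins by which rods and cones turn light into an electrical signal. A light-activated opsin switches on transducin, transducin switches on a phosphodiesterase that breaks down cyclic GMP, and cation channels that cyclic GMP holds open then close. Kinases, arrestins, recoverins and the RGS9 protein end the response, and the visual cycle rebuilds the chromophore 11-cis-retinal in the pigment epithelium and in Müller glia. The 46 genes described here are the zebrafish genes listed for these steps, namely transducins, phosphodiesterases, channels, shut-off proteins, disc proteins, retinoid cycle proteins and 3 genes listed with them, crx, nr2e3 and unc119b. A gene was included if at least 1 array probe carried a RefSeq accession that belongs to it. This held for 35 of the 46, with 79 probes, of which 77 passed the filter on dim signal, and all 35 genes were among the 23645 genes tested. Of the 35 genes, 10 are listed as rod genes and 12 as cone genes, while 9 are listed for both cell types and 4 for the pigment epithelium or Müller glia. This assignment of genes to cell types is background knowledge, not a measurement of these arrays. The arrays were made from whole larvae, so the signal of a gene cannot be assigned to the cell type it is listed for. The other 11 genes (abca4b, cnga1, cnga3a, cnga3b, cngb3, gngt2a, pde6a, pde6b, pde6ga, pde6gb and rgs9a) were not analysed here. All 4 listed channel genes and 4 of the 6 listed phosphodiesterase genes are among them.

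The arrays were made from whole wild-type WIK larvae exposed to T0901317 or GW3965, synthetic ligands that activate LXR, the liver X receptor, which senses oxysterols. Groups of 30 larvae per well received T0901317, labelled as 2 mM, GW3965, labelled as 1 mM, or the vehicle DMSO alone, from day 4 to day 6 after fertilization. All wells contained 0.1% DMSO, treatments were renewed after 24 h, and RNA was pooled. Since a lost micro sign cannot be checked from the labels, the doses are given only as labelled, and the agonists differ in dose. The design text calls the 4 arrays of each group biological quadruplicates and states that T0901317 replicate 2 was left out of the submitters' own analysis, so 3 T0901317, 4 GW3965 and 4 DMSO arrays were compared here.

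Each printed signal is an intensity scaled so that the 75th percentile of every array is 360.6 units; unscaled, this percentile lay between 331.6 and 390.5 units. On the 11 arrays 78.83% to 83.18% of probes were well above background, and arrays of 1 group correlated across genes at 0.988 to 0.9943. All 35 genes were well above background on every array on which their spot was not flagged for quality, as were the rod opsin gene rho and the cone opsin gene opn1sw1. Each of the 3 slides held 1 treatment, and the effect of the slide cannot be told apart from that of the treatment. Whole larvae were used, so fewer cells of a type and less RNA per cell cannot be told apart either. Fold changes are log2 values from limma, printed with their standard error (SE), for 3 T0901317 or 4 GW3965 arrays against 4 DMSO arrays, and a gene was called at a Benjamini-Hochberg adjusted p under 0.05 over all genes tested.

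DMSO replicate 1 stood apart from the other control arrays for these genes. It gave the lowest DMSO signal for 33 of the 34 genes whose spot was not flagged on it, including 10 of 10 rod and 12 of 12 cone genes. The exception was rpe65a, which was lowest in DMSO replicate 2, and the spot of rdh5 was flagged on DMSO replicate 1. On that array the median log2 deviation from the DMSO mean was -0.34 over rod genes and -0.35 over cone genes, beside 0.02 over all genes tested. The array was also low for opsins (median -0.34 over 7 genes) and bipolar cell markers (-0.35 over 11), while 22 lens genes had a median of 0.13 there. It was less low for 16 amacrine, ganglion and horizontal cell markers (-0.14) and for 11 pineal genes (-0.18). The medians were -0.05 over 9 Müller glia markers and -0.01 over 7 pigment genes. The counts and medians of each agonist comparison and of each role are therefore given with this array and without it, as are the genes whose call or sign it changed. The array was picked out on these same genes, so its omission lowers the agonist estimates of those 33 genes by construction. Calls gained without it are therefore no added support, and the shares over all genes are not a like comparison for them. Both estimates of each gene are drawn in the plot of fold changes with and without DMSO replicate 1.

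**Figure D1:**
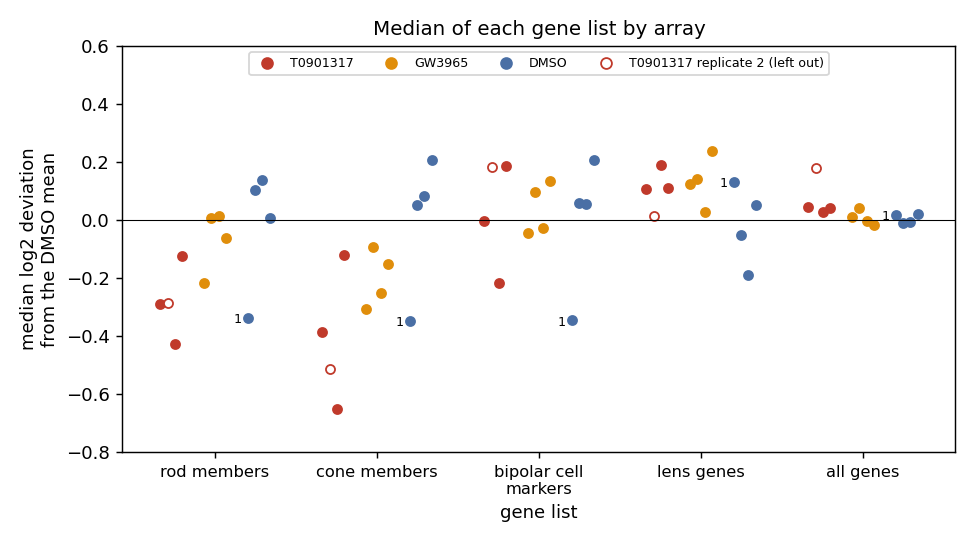
Median log2 deviation from the DMSO mean (vertical axis) over rod genes, cone genes, bipolar cell markers, lens genes and all genes tested, with 1 point per array, T0901317 at the left of each list, then GW3965 and DMSO. The open circle is the left-out T0901317 replicate 2, and the digit marks DMSO replicate 1, which lies at -0.34 for rod genes and at -0.35 for cone genes while all genes tested lie at 0.02.

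The first comparison asks how the cascade genes differ in T0901317 larvae. The recoverin gene rcvrna was called, at 1.49-fold below DMSO larvae, and 0 of the other 34 genes passed. That is 1 of 35 genes, or 2.86%, beside 2.58% of all genes tested in either direction and 0.998% in the lower direction. Most estimates lay below 0: 26 of 35 were negative, with a median of -0.24, whereas over all genes tested 41% were negative and the median was 0.04. The median was -0.30 over rod genes (8 of 10 negative), -0.38 over cone genes (11 of 12 negative), -0.14 over the 9 genes of both cell types and 0.00 over the 4 genes of pigment epithelium and Müller glia. An unadjusted p under 0.05 was reached by 15 genes, 12 of them with a negative and 3 with a positive estimate, which is 42.9% beside 14.9% of all genes tested (5.43% with a negative and 9.44% with a positive estimate). The signals of T0901317 and DMSO larvae did not overlap for 2 genes, rcvrna and prph2b, both below DMSO, or 5.71% beside 12.5% of all genes in either direction. Over all genes 4.58% lay wholly below DMSO and 7.97% wholly above it. Without DMSO replicate 1, 7 of 35 genes were called lower (rcvrna, gnat1, sagb, arr3a, grk7a, grk7b and rlbp1a) beside 0.943% of all genes called lower and 2.55% called in either direction, and the medians were -0.38 over rod and -0.50 over cone genes. Omission of DMSO replicate 3, DMSO replicate 4 or T0901317 replicate 1 instead left 0 genes called.

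The second comparison sets GW3965 against DMSO. Here 0 of 35 genes were called, beside 5.69% of all genes tested, and the smallest adjusted p was 0.0928, again for rcvrna. At an unadjusted p under 0.05 there were 7 genes (5 negative and 2 positive estimates), which is 20% beside 19.6% of all genes (11.7% negative and 7.87% positive). The median was -0.10 over the 35 genes, of which 26 were negative, beside 0.01 and 48.1% negative over all genes tested. It was -0.07 over rod genes (8 of 10 negative) and -0.18 over cone genes (10 of 12 negative). The arrays did not overlap for 4 genes, or 11.4% beside 14.5%: GW3965 signals lay below those of DMSO for grk7a, rlbp1b and rdh5 (8.37% of all genes) and above them for rbp4l (6.11% of all genes). Without DMSO replicate 1, sagb, arr3a and rcvrna were called lower, 3 of 35 beside 3.35% of all genes called lower and 4.55% called in either direction, and the medians became -0.18 over rod and -0.32 over cone genes. Both agonist comparisons use the same DMSO arrays, so their similarity is not independent evidence.

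**Figure D2:**
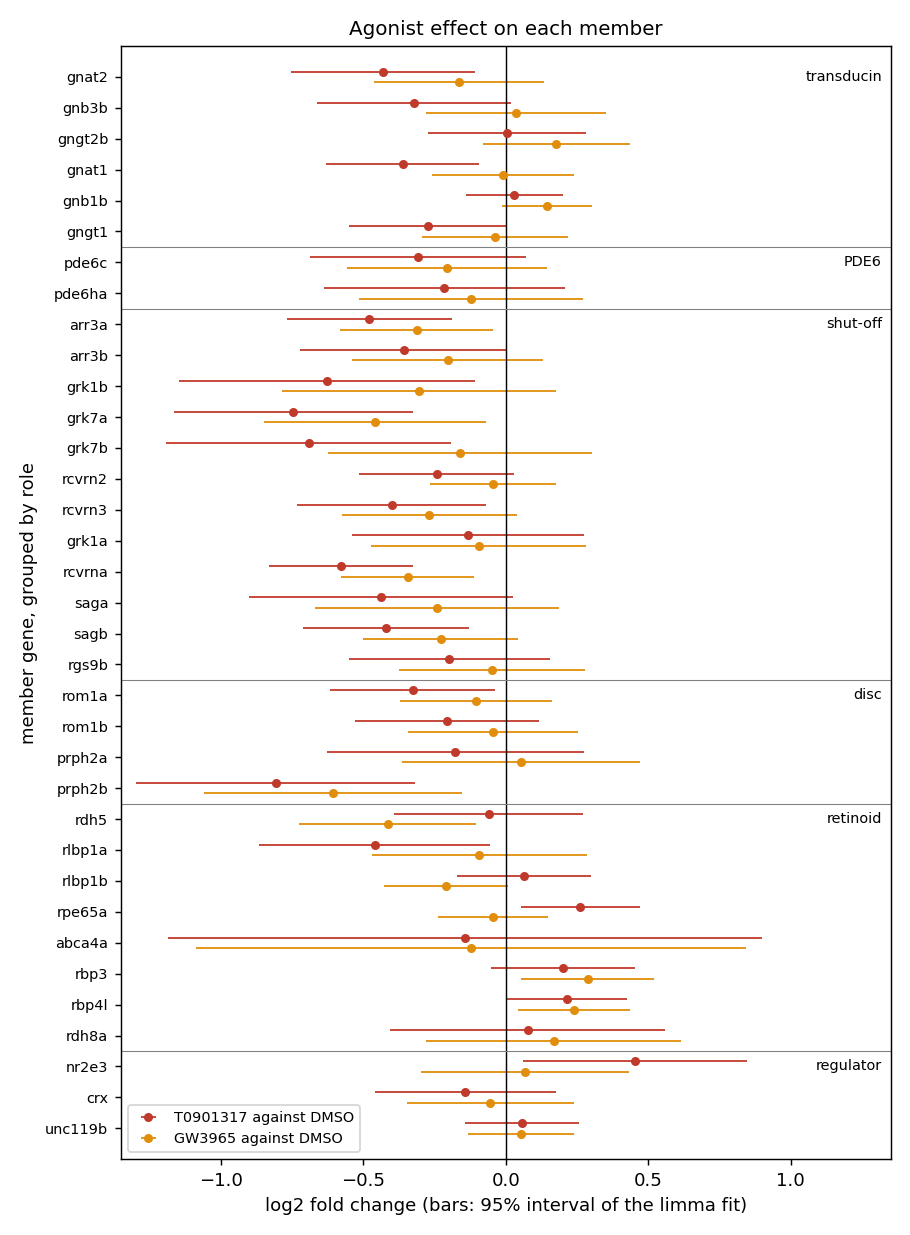
Log2 fold change (horizontal axis) of each of the 35 genes, grouped by role, for T0901317 against DMSO and, below it, GW3965 against DMSO; bars are 95% intervals. The 12 shut-off genes lie left of 0 for both agonists, while 5 of 8 retinoid genes lie right of 0 for T0901317 (4 of 8 without DMSO replicate 1).

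Transducin, the G protein that relays the signal of the opsin, is made of different subunits in rods and cones. The rod alpha subunit gene gnat1 had 1040, 1080 and 1190 units in T0901317 larvae, 1260, 1450, 1480 and 1450 units in GW3965 larvae, and 1130, 1580, 1580 and 1420 units in DMSO larvae. The T0901317 values lay below all 4 GW3965 values but overlapped with those of DMSO, where replicate 1 was low. The log2 fold change was -0.36 ± 0.12 for T0901317 (adjusted p = 0.181) and -0.01 ± 0.11 for GW3965 (adjusted p = 0.974), and without DMSO replicate 1 the T0901317 estimate was -0.47 (adjusted p = 0.0341). The rod gamma subunit gene gngt1 had 6260, 5800 and 7470 units under T0901317, 6670, 8630, 7330 and 7980 units under GW3965, and 6750, 7850, 7960 and 8870 units in DMSO. Its 3 groups overlapped, with estimates of -0.27 ± 0.13 and -0.04 ± 0.12.

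Among the cone transducin genes the gamma subunit gene gngt2b had 63200, 58700 and 70700 units in T0901317 larvae, 64300, 81800, 68200 and 75800 units in GW3965 larvae, and 52400, 64900, 67700 and 72000 units in DMSO larvae. All 3 groups overlapped here too, with estimates of 0.00 ± 0.13 and 0.18 ± 0.12. The cone alpha subunit gene gnat2 had an estimate of -0.43 ± 0.15 for T0901317 (adjusted p = 0.186) and of -0.16 ± 0.14 for GW3965. The cone beta subunit gene gnb3b had -0.32 ± 0.15 and 0.04 ± 0.14, and the rod beta subunit gene gnb1b had 0.03 ± 0.08 and 0.15 ± 0.07. Of the 5 gnb3b probes, 4 were negative for GW3965, at -0.37 to -0.11, so the sign of this gene there depends on the probe. With all 11 arrays, 0 of 6 transducin genes passed for either agonist, and 4 of 6 were negative for T0901317 (median -0.30) and 3 of 6 for GW3965 (median 0.01). When DMSO replicate 1 was omitted, gnat1 was called for T0901317, where 6 of 6 were negative (median -0.39), and 0 passed for GW3965, where 4 of 6 were negative (median -0.09). The estimates that changed sign were those of gngt2b (-0.09) and gnb1b (0.00) for T0901317 and of gnb3b (-0.07) for GW3965.

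The phosphodiesterase of cones was represented by its catalytic subunit gene pde6c and by pde6ha, an inhibitory subunit gene. For pde6c the signals were 5660, 4150 and 6200 units under T0901317, 5180, 6980, 5330 and 5250 units under GW3965, and 5110, 7060, 6900 and 7200 units in DMSO. DMSO replicate 1 and GW3965 replicate 2 each stood apart from the rest of their group, and the groups overlapped. The estimates were -0.31 ± 0.17 for T0901317 (adjusted p = 0.467) and -0.21 ± 0.16 for GW3965 (adjusted p = 0.525). For pde6ha the signals were 74400, 63300 and 106000 units under T0901317, 70000, 85300, 80400 and 107000 units under GW3965, and 81800, 92000, 84300 and 113000 units in DMSO. Replicate 4 was the highest array of each group for this gene, and the estimates were -0.22 ± 0.19 and -0.12 ± 0.18. When that DMSO array was omitted, 0 of the 2 genes passed, and the estimates were -0.42 for T0901317 and -0.32 for GW3965 for pde6c, and -0.27 and -0.18 for pde6ha.

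Among the proteins that end the light response, all 12 measured shut-off genes had negative estimates for T0901317, with a median of -0.43 and a range of -0.74 to -0.13, and all 12 were negative for GW3965, with a median of -0.23. Over all genes tested, 41% were negative for T0901317 and 48.1% for GW3965. With all 11 arrays rcvrna passed for T0901317 and 0 passed for GW3965. Without DMSO replicate 1 all 12 were again negative for both agonists, with medians of -0.55 and -0.36, and 5 were called lower for T0901317 (rcvrna, sagb, arr3a, grk7a and grk7b) and 3 for GW3965 (rcvrna, sagb and arr3a). In that setting 0.943% of all genes were called lower for T0901317 and 3.35% for GW3965. Recoverins bind calcium and restrain the opsin kinases. The rcvrna signals were 477, 422 and 471 units in T0901317 larvae, 498, 615, 530 and 509 units in GW3965 larvae, and 564, 707, 744 and 721 units in DMSO larvae. The 3 T0901317 arrays lay below all GW3965 and all DMSO arrays, while GW3965 and DMSO overlapped through GW3965 replicate 2. The means were 456 ± 30.2 units in T0901317 larvae (SD, n = 3), 538 ± 53.2 in GW3965 larvae (SD, n = 4) and 684 ± 81.7 in DMSO larvae (SD, n = 4). The log2 fold change was -0.58 ± 0.11 for T0901317 (adjusted p = 0.0269) and -0.34 ± 0.11 for GW3965 (adjusted p = 0.0928). A second rcvrna probe gave -0.64 for T0901317 (adjusted p = 0.0307) and -0.49 for GW3965 (adjusted p = 0.0431) when every probe was fitted on its own.

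The rcvrna call for T0901317 was close to the threshold. It ended in 9 of 22 alternative analyses, with adjusted p values of 0.0559 to 0.0902 and estimates that stayed between -0.67 and -0.48 over all 22. Among them were the omissions of a single array: DMSO replicate 2 (adjusted p = 0.0779), DMSO replicate 3 (0.0715), DMSO replicate 4 (0.0592), T0901317 replicate 1 (0.0749), T0901317 replicate 3 (0.0877) and T0901317 replicate 4 (0.0751). Without DMSO replicate 1 the adjusted p was 0.00922 for T0901317 and 0.0271 for GW3965. With replicate number as a block, the pairing by number gave -0.54 and an adjusted p of 0.0559, and no gene of the cascade was called. With the left-out T0901317 replicate 2 put back, at 591 units, the estimate was -0.48 (adjusted p = 0.0902).

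Arrestins cap the phosphorylated opsin. The cone arrestin gene arr3a had 10300, 8920 and 11600 units in T0901317 larvae, 11300, 11700, 11300 and 11500 units in GW3965 larvae, and 11200, 14900, 14700 and 16700 units in DMSO larvae. Every agonist array lay below DMSO replicates 2 to 4, while DMSO replicate 1 fell within the agonist values. The estimates were -0.48 ± 0.13 for T0901317 (adjusted p = 0.0959) and -0.31 ± 0.12 for GW3965 (adjusted p = 0.185); without DMSO replicate 1 they were -0.60 (adjusted p = 0.0195) and -0.43 (adjusted p = 0.0351). The rod arrestin gene sagb had 2130, 2050 and 1990 units under T0901317, 2370, 2600, 2280 and 2160 units under GW3965, and 2110, 3080, 3180 and 2760 units in DMSO. Again DMSO replicate 1 lay with the agonist arrays. The sagb estimates were -0.42 ± 0.13 for T0901317 (adjusted p = 0.151) and -0.23 ± 0.12 for GW3965, and without DMSO replicate 1 they were -0.55 (adjusted p = 0.0186) and -0.36 (adjusted p = 0.0489). The second cone arrestin gene arr3b had -0.36 ± 0.16 and -0.20 ± 0.15, and the second rod arrestin gene saga -0.44 ± 0.21 and -0.24 ± 0.19.

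Opsin kinases phosphorylate the activated opsin, and the cone kinase genes had the 3 largest T0901317 estimates of the shut-off genes. The cone kinase gene grk7a had 1620, 1220 and 2290 units in T0901317 larvae, 1900, 2110, 1940 and 2130 units in GW3965 larvae, and 2180, 2890, 3030 and 3100 units in DMSO larvae. Its GW3965 arrays all lay below the DMSO arrays, and T0901317 replicate 4 was the array that overlapped with DMSO. The estimates were -0.74 ± 0.19 for T0901317 (adjusted p = 0.0729) and -0.46 ± 0.18 for GW3965 (adjusted p = 0.177). Without T0901317 replicate 4 the T0901317 estimate was -0.98 (adjusted p = 0.0205), and without DMSO replicate 1 it was -0.86 (adjusted p = 0.0465). A dimmer grk7a probe passed for both agonists when every probe was fitted, at -1.01 (adjusted p = 0.00924) and -0.68 (adjusted p = 0.0246), so whether grk7a is called depends on the probe that stands for it. The T0901317 estimates of the other cone kinase genes were -0.69 ± 0.23 for grk7b (adjusted p = 0.169, and -0.88 with an adjusted p of 0.045 without DMSO replicate 1) and -0.63 ± 0.24 for grk1b (adjusted p = 0.231), and the rod kinase gene grk1a had -0.13 ± 0.18. The cone recoverin genes rcvrn3 and rcvrn2 had -0.40 ± 0.15 and -0.24 ± 0.12; the spot of rcvrn2 was flagged on T0901317 replicate 4, which leaves 2 arrays in that group. The gene rgs9b, whose product speeds the return of transducin to rest, had -0.20 ± 0.16.

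**Figure D3:**
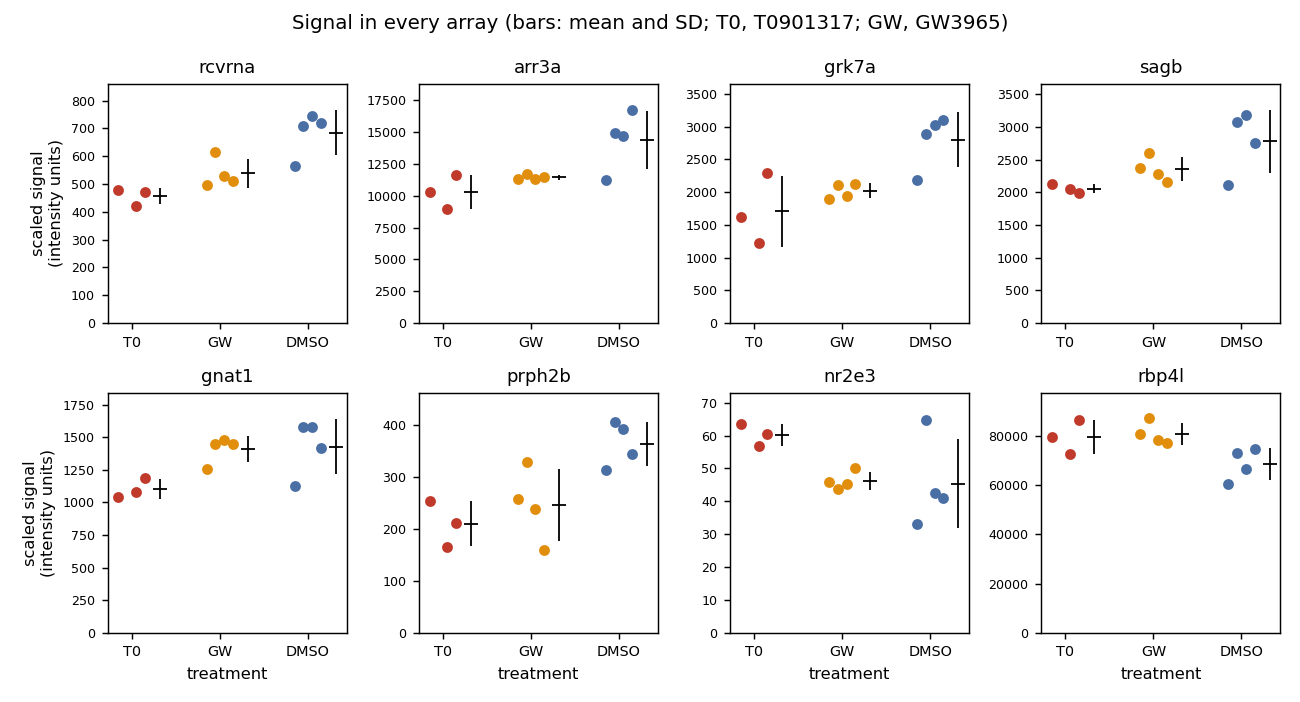
Scaled signal in intensity units (vertical axes, from 0) of 8 genes in every array, with mean and SD beside the points, for T0901317 (T0), GW3965 (GW) and DMSO. The lowest DMSO point of rcvrna (564 units), arr3a (11200), grk7a (2180), sagb (2110), gnat1 (1130), prph2b (314), nr2e3 (33.2) and rbp4l (60400) is replicate 1.

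Peripherins and Rom1 proteins shape the rims of the outer segment discs. Of 4 disc genes, 0 passed for either agonist, and the estimates for T0901317 were all negative, with a median of -0.27. For prph2b the signals were 253, 166 and 211 units in T0901317 larvae, 258, 328, 239 and 159 units in GW3965 larvae, and 314, 406, 392 and 344 units in DMSO larvae. The T0901317 arrays did not overlap with DMSO, and GW3965 replicate 2 reached into the DMSO values. The estimates were the largest of the 35 genes for both agonists, at -0.81 ± 0.22 (adjusted p = 0.0961, and 0.0389 without GW3965 replicate 4) and -0.61 ± 0.21 (adjusted p = 0.127). The other 2 probes of prph2b gave -0.11 and -0.18 for T0901317 and 0.18 and 0.00 for GW3965, so its probes disagree in size for T0901317 and in sign for GW3965. The gene rom1b had 1980, 1660 and 2300 units under T0901317, 1940, 2300, 2190 and 2380 units under GW3965, and 1770, 2400, 2510 and 2450 units in DMSO. Its lowest DMSO array, replicate 1, was near the lowest T0901317 array, and the estimates were -0.21 ± 0.15 and -0.04 ± 0.14. The other estimates were -0.33 ± 0.13 and -0.10 ± 0.12 for rom1a, and -0.18 ± 0.20 and 0.05 ± 0.19 for prph2a. In the fit without DMSO replicate 1, 0 of 4 disc genes passed, and all 4 were negative for both agonists (medians -0.37 and -0.18), prph2a having turned to -0.08 for GW3965. The prph2b estimates were then -0.88 (adjusted p = 0.101) and -0.67 (adjusted p = 0.131).

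The visual cycle genes were of mixed sign. Of 8 measured retinoid genes, 5 had positive estimates for T0901317 and 3 for GW3965, with medians of 0.07 and -0.07, and 0 passed. Once DMSO replicate 1 was omitted, 4 were positive for T0901317 and 2 for GW3965, with medians of -0.01 and -0.14, and rlbp1a was called lower for T0901317. The isomerase gene rpe65a, which encodes the pigment epithelium enzyme that makes 11-cis-retinol, had 15800, 12500 and 16100 units in T0901317 larvae, 11900, 12100, 11700 and 11800 units in GW3965 larvae, and 12500, 11600, 13000 and 12100 units in DMSO larvae. T0901317 replicates 1 and 4 were above every other array, and the estimates were 0.26 ± 0.09 for T0901317 (adjusted p = 0.212, and 0.0451 without T0901317 replicate 3) and -0.04 ± 0.09 for GW3965. The retinol dehydrogenase gene rdh5 had 302, 265 and 388 units under T0901317, 250, 231, 230 and 276 units under GW3965, and 287, 345 and 356 units on the 3 DMSO arrays whose spot was not flagged. Its GW3965 arrays lay below those DMSO arrays, at -0.41 ± 0.14 (adjusted p = 0.129), while the T0901317 estimate was -0.06 ± 0.15.

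The 2 copies of the retinaldehyde-binding protein gene, rlbp1a of the pigment epithelium and rlbp1b of Müller glia, had estimates of opposite sign under T0901317, a difference that was not tested. The rlbp1a estimates were -0.46 ± 0.18 for T0901317 (adjusted p = 0.268) and -0.09 ± 0.17 for GW3965, and without DMSO replicate 1 the first was -0.64 (adjusted p = 0.0294). The rlbp1b estimates were 0.06 ± 0.11 for T0901317 and -0.21 ± 0.10 for GW3965 (adjusted p = 0.272). The retinoid carrier genes had positive estimates for both agonists: rbp3, which encodes the retinoid carrier between photoreceptors and pigment epithelium, had 0.20 ± 0.11 for T0901317 and 0.29 ± 0.11 for GW3965 (adjusted p = 0.16). The retinol-binding protein gene rbp4l had 79700, 72500 and 86300 units under T0901317, 80900, 87100, 78300 and 77000 units under GW3965, and 60400, 72900, 66700 and 74500 units in DMSO. Its GW3965 arrays were all above DMSO, and the estimates were 0.21 ± 0.10 (adjusted p = 0.334) and 0.24 ± 0.09 (adjusted p = 0.165). The photoreceptor retinol dehydrogenase gene rdh8a had 0.08 ± 0.22 and 0.17 ± 0.20, which became -0.10 and -0.01 without DMSO replicate 1. The retinoid flippase gene abca4a was dim, at 20.7 ± 14.5 units in T0901317 larvae (SD, n = 3), 19.0 ± 7.56 in GW3965 larvae (SD, n = 4) and 21.2 ± 9.40 in DMSO larvae (SD, n = 4), and its SE of 0.47 for T0901317 was the largest of the 35 genes.

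Among the regulators, nr2e3 encodes a nuclear receptor that favours rod over cone genes. It had 63.6, 56.9 and 60.4 units in T0901317 larvae, 45.9, 43.6, 45.3 and 50 units in GW3965 larvae, and 33.2, 64.6, 42.6 and 41 units in DMSO larvae. The T0901317 arrays were above all GW3965 arrays and above every DMSO array but replicate 2. The estimates were 0.45 ± 0.18 for T0901317 (adjusted p = 0.26) and 0.07 ± 0.16 for GW3965 (adjusted p = 0.867), and without DMSO replicate 2 the T0901317 estimate was 0.64 (adjusted p = 0.0268). Omission of DMSO replicate 1 gave 0.32 for T0901317 (adjusted p = 0.359) and -0.07 for GW3965 (adjusted p = 0.85). The photoreceptor homeobox gene crx had -0.14 ± 0.14 and -0.05 ± 0.13. The gene unc119b, whose product carries lipid-tailed proteins such as transducin, had 0.06 ± 0.09 and 0.05 ± 0.08. Of the 3 regulators 0 passed with or without DMSO replicate 1, and the medians were 0.06 and 0.05 with it and 0.02 and -0.07 without it.

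**Figure D4:**
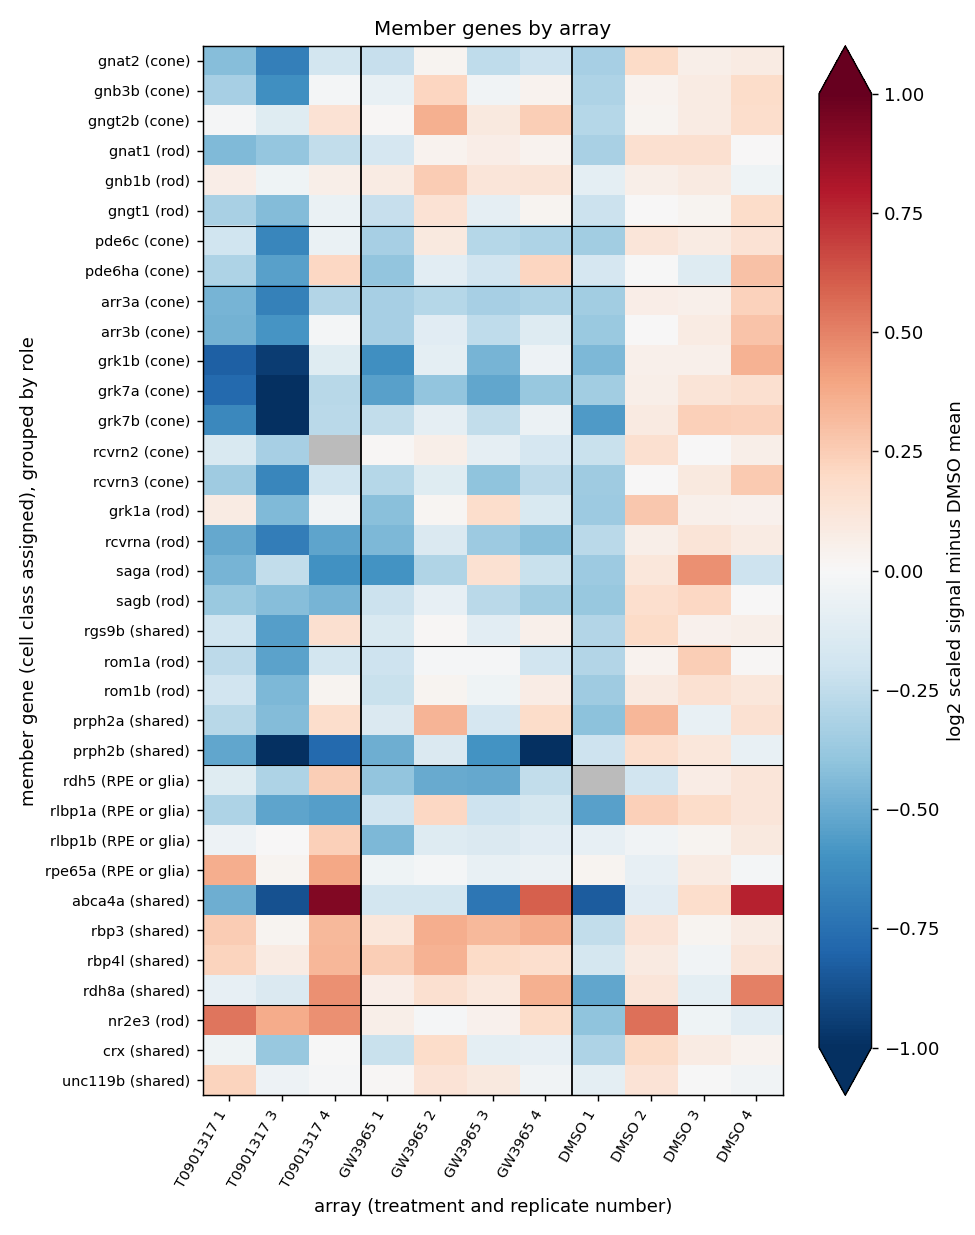
Log2 signal minus the DMSO mean (colour, with values beyond 1 in either direction at the end colours) of the 35 genes (rows, grouped by role) in the 11 arrays (columns, T0901317 first, then GW3965 and DMSO). Grey marks a flagged spot; the column of DMSO replicate 1 holds the lowest DMSO value for 33 of the 34 genes measured there.

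Array by array, the cone medians were -0.39, -0.65 and -0.12 for T0901317 replicates 1, 3 and 4, between -0.31 and -0.09 for GW3965, and between -0.35 and 0.21 for DMSO. The rod medians were -0.29, -0.43 and -0.12 for those T0901317 arrays, between -0.22 and 0.02 for GW3965, and between -0.34 and 0.14 for DMSO. T0901317 replicate 3 was the lowest array for both classes, and T0901317 replicate 4 lay inside the DMSO range of both. The cone medians of both agonists and the rod medians of T0901317 lay below those of DMSO replicates 2 to 4 on every array, while the rod medians of GW3965 overlapped with them. That separation leaves out DMSO replicate 1, which was picked out on these same genes, so it is no added support. With all DMSO arrays, every GW3965 cone median lay inside the DMSO range. So did the rod medians of T0901317 replicates 1 and 4. Bipolar cell markers, a list of retinal neurons that are not photoreceptors, ranged from -0.22 to 0.19 under T0901317, from -0.04 to 0.13 under GW3965 and from -0.35 to 0.21 in DMSO. Their summed signal was 6623 to 8609 units under T0901317, 7314 to 8199 units under GW3965 and 6170 to 8492 units in DMSO. The marker gnao1b alone averaged 4310, 4430 and 4490 units in T0901317, GW3965 and DMSO larvae. In whole larvae, signal of these markers from outside the retina cannot be told apart. Of the 11 bipolar markers, 0 passed for either agonist, and 0 of 16 amacrine, ganglion and horizontal cell markers passed. Of 7 pigment genes listed for the pigment epithelium, 0 passed. In whole larvae the signal of these pigment genes cannot be assigned to the eye. Their medians lay at 0.10 to 0.29 on the T0901317 arrays, at 0.02 to 0.14 on the GW3965 arrays and at -0.07 to 0.04 on the DMSO arrays. T0901317 and DMSO medians thus did not overlap, while the summed signals did (9000 to 9929, 8452 to 8622 and 7916 to 9471 units in T0901317, GW3965 and DMSO larvae). The medians over all genes tested did not overlap between T0901317 and DMSO either, at 0.03 to 0.04 and -0.01 to 0.02. The summed signal of 9 Müller glia markers was 83410 to 93840 units under T0901317, 93120 to 98010 units under GW3965 and 71230 to 82410 units in DMSO, with both agonists above DMSO on every array. That sum includes apoeb, which averaged 32500, 37400 and 26100 units in T0901317, GW3965 and DMSO larvae. By itself apoeb had 29200 to 34900 units under T0901317, 34000 to 39400 under GW3965 and 24700 to 27700 in DMSO. With apoeb taken out, the sums of each agonist overlapped with those of DMSO, so the separation above holds only for the sum with apoeb. In whole larvae the signal of this list cannot be assigned to Müller glia. The medians of the list overlapped, at 0.04 to 0.21, 0.07 to 0.21 and -0.07 to 0.13. Of the 9 estimates, 3 were negative for T0901317 and 4 for GW3965. The part of these marker levels in the results was not tested. T0901317 replicate 3 and DMSO replicate 1 were low for bipolar markers as well as for rod and cone genes, and the part of this in the results was not tested.

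**Figure D5:**
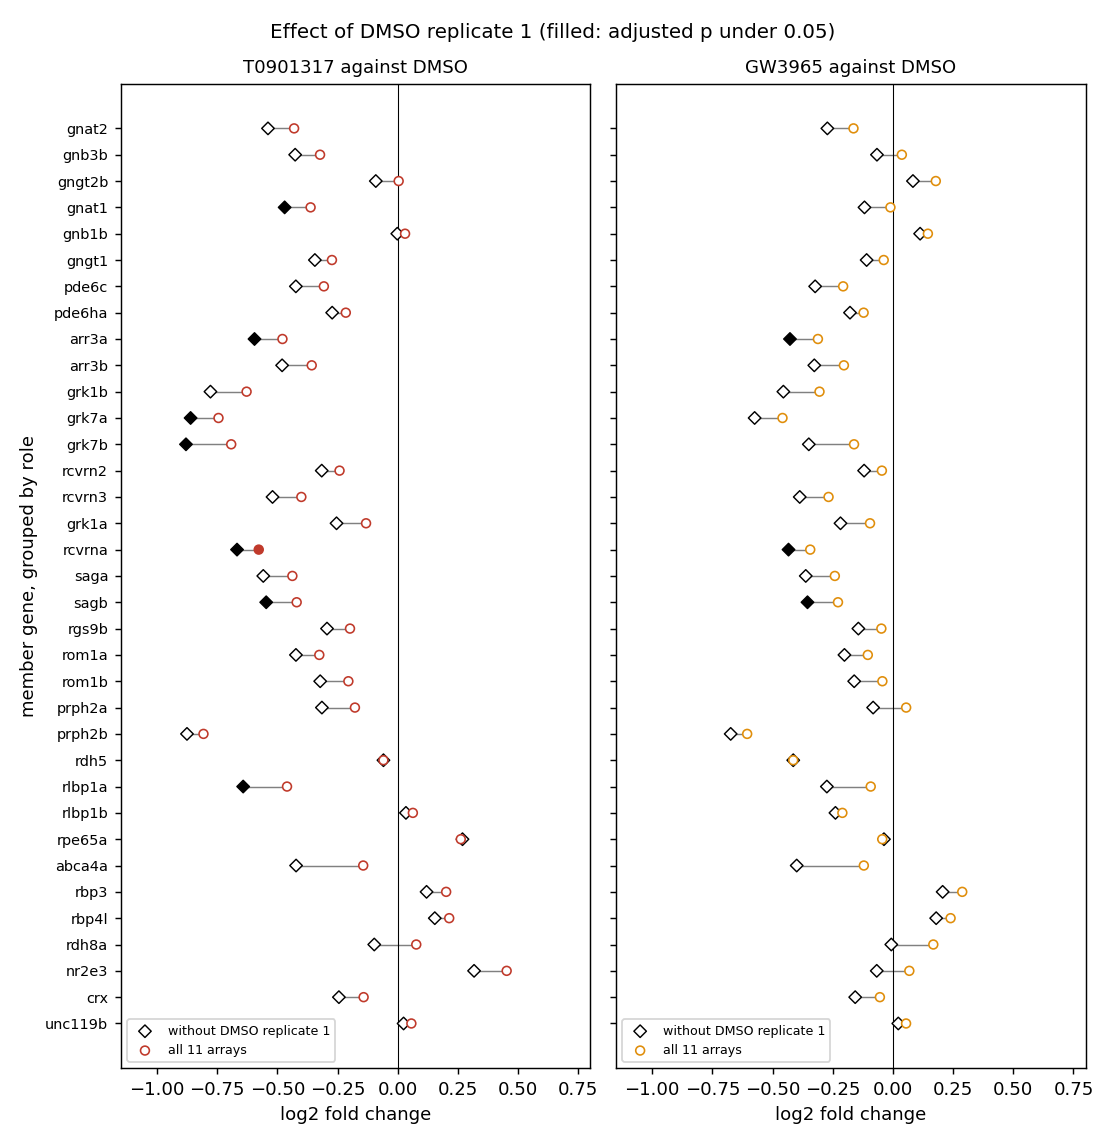
Log2 fold change (horizontal axis) of the 35 genes without DMSO replicate 1 (diamonds) and with all 11 arrays (circles), for T0901317 against DMSO at the left and GW3965 against DMSO at the right; filled symbols have an adjusted p under 0.05. Filled diamonds number 7 for T0901317 and 3 for GW3965, against 1 filled circle, that of rcvrna for T0901317.

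The third comparison sets the agonists against each other, at labelled doses that differ. Its values come from the same fit, which did not pair arrays by replicate number. Of 35 genes 0 were called, beside 5.4% of all genes tested, and 6 had an unadjusted p under 0.05, which is 17.1% beside 13.5%; 3 of the 6 estimates were negative and 3 positive, beside 2.56% and 10.9% of all genes. The median estimate of T0901317 against GW3965 was -0.16 over the 35 genes (30 negative), -0.19 over rod genes (9 of 10 negative) and -0.19 over cone genes (12 of 12 negative), beside 0.01 over all genes. The arrays of the agonists did not overlap for 9 genes, or 25.7% beside 15% of all genes: rlbp1b, rpe65a and nr2e3 were above GW3965 (10.4% of all genes), and gnat1, gnb1b, sagb, grk7b, rcvrna and rlbp1a were below it (4.58% of all genes). The smallest adjusted p was that of rpe65a (0.31 ± 0.09, adjusted p = 0.113, 95% interval 0.10 to 0.51), which was called without T0901317 replicate 3 (adjusted p = 0.0114). The estimate for gnat1 was -0.35 ± 0.12 (adjusted p = 0.18, 95% interval -0.62 to -0.08), for grk7b -0.53 ± 0.23 (adjusted p = 0.327, 95% interval -1.03 to -0.03) and for rdh5 0.35 ± 0.14 (adjusted p = 0.272, 95% interval 0.04 to 0.66). For rcvrna the agonists differed by -0.23 ± 0.11 (adjusted p = 0.419, 95% interval -0.49 to 0.02). Without DMSO replicate 1, gnat1 was called between the agonists (adjusted p = 0.0484), at a lower level under T0901317, 1 of 35 beside 0.173% of all genes called lower and 5.41% called in either direction. That array belongs to neither agonist group and enters this comparison only through the shared estimate of spread.

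Genes of the same pathway outside the 35 were read from the same fit. Guanylate cyclases and their activating proteins restore cyclic GMP when calcium falls. Of 5 measured genes of this list, guca1d and guca1g were called lower under both agonists. The gene guca1b was also called lower, but it passed the filter on dim signal only through its DMSO arrays. Its calls are therefore not counted as support. Over all genes tested, 0.998% were called lower for T0901317 and 1056 of 23645 for GW3965. Apart from guca1b, whose sign is not counted for the same reason, all estimates of this list were negative for both agonists. The share of negative estimates over all genes was 41% for T0901317 and 48.1% for GW3965. The activator gene guca1g had 131, 118 and 147 units in T0901317 larvae, 152, 160, 163 and 118 units in GW3965 larvae, and 193, 245, 242 and 216 units in DMSO larvae. Neither agonist group overlapped with DMSO, and guca1g fell by 0.77 ± 0.13 for T0901317 (adjusted p = 0.016) and by 0.60 ± 0.12 for GW3965 (adjusted p = 0.0189). The activator gene guca1d fell by 0.91 ± 0.19 (adjusted p = 0.0341) and by 0.94 ± 0.18 (adjusted p = 0.0117). The activator gene guca1b was well above background on all 4 DMSO arrays but not on any agonist array, so only a bound holds. It was at least 1.8-fold lower in T0901317 larvae and in GW3965 larvae than in DMSO larvae. This bound compares the DMSO mean with the lowest signal well above background on each agonist array, or the probe's own if higher. The limma adjusted p values, 0.0258 for T0901317 and 0.00357 for GW3965, do not test the bound. They belong to the full estimates, which use agonist signals not well above background. The GW3965 calls of guca1b and guca1d ended in 1 alternative each, when the left-out T0901317 replicate 2 was put back (adjusted p = 0.156 for guca1b and 0.0616 for guca1d). That array enters the GW3965 comparison only through the shared estimate of spread. On it guca1b had 44.1 units and guca1d 75.6, above the other T0901317 arrays (2.79 to 5.64 and 35.7 to 51.1). The GW3965 call of guca1g ended in 3 alternatives, 2 of them the omission of DMSO replicate 2 (adjusted p = 0.0526) or DMSO replicate 3 (0.0572). For T0901317 the calls ended in 8 of 21 alternatives for guca1b, 9 of 22 for guca1d and 4 of 22 for guca1g. Single arrays whose omission ended them were DMSO replicates 2 and 3 and T0901317 replicates 1 and 3 for guca1b (adjusted p 0.0514 to 0.0842), DMSO replicates 2, 3 and 4, T0901317 replicates 3 and 4 and GW3965 replicate 3 for guca1d (0.0535 to 0.114), and DMSO replicate 2 and T0901317 replicates 1 and 3 for guca1g (0.0539 to 0.0648). With normexp, which adds an offset and so shrinks the changes of dim genes, the guca1b estimate was -0.18 for T0901317 (adjusted p = 0.218). Without DMSO replicate 1 the calls of guca1b, guca1d and guca1g were kept for both agonists, with adjusted p values of 0.00495 to 0.0343. Each of these genes had its lowest DMSO signal on that array, so the kept calls are no added support.

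Of 7 measured opsin genes, 1 fell under T0901317 and 1 rose under GW3965, with medians of 0.05 and 0.14. For each agonist 4 of these 7 estimates were positive and 3 negative. Of all 23645 genes tested, 373 were called higher and 236 lower for T0901317, and 289 higher and 1056 lower for GW3965. Beside these shares, single calls in the opsin list and the lists below are not read as results about the lists. Close to the threshold were the cone opsin genes opn1sw1 for T0901317 (-0.75 ± 0.18, adjusted p = 0.0531) and opn1lw2 for GW3965 (0.46 ± 0.12, adjusted p = 0.052). The other agonist gave -0.37 ± 0.16 for opn1sw1 and 0.27 ± 0.13 for opn1lw2. The rhodopsin-like gene rhol fell by 0.69 ± 0.16 for T0901317 (adjusted p = 0.0458), with 118, 106 and 114 units in T0901317 larvae against 146, 234, 182 and 176 units in DMSO larvae, and its call ended in 12 of 22 alternatives, among them the omission of DMSO replicate 2, 3 or 4, T0901317 replicate 1, 3 or 4, or GW3965 replicate 3 or 4 (adjusted p 0.0646 to 0.126). The green cone opsin gene opn1mw1 rose by 0.50 ± 0.11 for GW3965 (adjusted p = 0.0254), with 23800, 27600, 25400 and 23800 units in GW3965 larvae against 14200, 19300, 19800 and 18100 units in DMSO larvae, a call that ended in 4 of 22 alternatives, among them the omission of DMSO replicate 4 or GW3965 replicate 2 or 3 (adjusted p 0.0548 to 0.073). Neither group pair overlapped. Of 7 other cascade genes, 0 passed for either agonist. Of 23 other visual cycle genes, the retinaldehyde reductase gene dhrs3b rose for T0901317 (0.45 ± 0.09, adjusted p = 0.0247, a call that ended in 7 of 22 alternatives, among them the omission of DMSO replicate 2 or 3 or T0901317 replicate 1, 3 or 4, at adjusted p 0.0541 to 0.0807), and 0 passed for GW3965. Of 18 genes for photoreceptor transcription factors, 1 fell for T0901317, the retinal homeobox gene rx2 (-0.86 ± 0.15, adjusted p = 0.0139, a call that ended in 2 of 22 alternatives, at 0.0628 with T0901317 replicate 2 put back and 0.0573 with only the 2 groups compared), whose GW3965 estimate was -0.52 ± 0.14 (adjusted p = 0.0536, and 0.036, 0.0225 and 0.0445 without DMSO replicate 1, T0901317 replicate 3 or T0901317 replicate 4), and of 11 photoreceptor structure genes 0 passed for either agonist.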

How the data were processed

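RNA of pooled whole larvae was measured on 1-colour Agilent zebrafish arrays. Per the file headers and the submitters' processing notes, the authors extracted spots with Agilent Feature Extraction 11.0.1.1; the deposited processed signals are intensity values on a linear scale, background-subtracted and not scaled between arrays. The deposited value table held the same intensities on all 12 arrays (largest log2 difference 0) and was not analysed again. Probes were named by RefSeq accession through the RefSeq gene table of assembly GRCz12tu, for names only; 18534 of 43603 probes stayed without a symbol. The files used here pair no sequence with the probes, so cross-hybridisation between paralogs (arr3a and arr3b, grk7a and grk7b, and the like) was not checked.

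Spots flagged as outliers were left out, the log2 signal was reduced by each array's 75th percentile, and probes well above background on at least 3 of 11 arrays were kept, with the brightest probe per gene. Group means were fitted by lmFit and eBayes of limma 3.58.1 (R 4.3.3), which gave 8 residual and 2.69 prior degrees of freedom, and p-values were adjusted by Benjamini-Hochberg over all 23645 genes. On simulated data of this size, 75% of genes lowered or raised by 1 log2 unit and 30% of those moved by 0.5 were recovered for T0901317, and 82% and 35% for GW3965. The simulated noise was independent between genes, whereas DMSO replicate 1 was low for nearly all cascade genes. The recovery rates therefore do not describe genes that shift together on an array. The number of arrays limits the precision.

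The genes and lists were chosen with earlier results of these data known. Values in every array are given for called genes and, per role, for the gene with the smallest p and the brightest rod and cone gene; those of grk7a, rpe65a, rbp4l, guca1g, rhol and opn1mw1 were added after they were seen. Genes outside the list of 46 are named where called, or as checks (rho and opn1sw1). The values of opn1sw1, opn1lw2 and gnao1b were added after they were seen.

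The alternatives were normexp background correction (offset 50), scaling to the median of bright probes, quantile normalization, a filter on all 11 arrays, no filter, the mean over probes, every probe, the left-out array put back, only the 2 groups compared, a replicate block, eBayes with trend and robust, and leaving out each array in turn. A slide block was planned but could not be fitted, since each slide holds 1 group. Same-numbered arrays shared their deviations from the group mean between T0901317 and GW3965 (r 0.132 to 0.498 over 3 pairs), so that comparison may be paired. What a number stands for is not stated in the labels. The range was 0.026 to 0.463 between T0901317 and DMSO and 0.044 to 0.382 between GW3965 and DMSO, and these ranges overlap with the first. The main fit was unpaired for all 3 comparisons, and pairing by number entered only through the replicate block. The highest correlation between any 2 arrays was 0.9943, and no array was treated as a duplicate.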

Additional observations from a re-analysis of the deposited data

Results flagged for a closer look

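In 9 of 88 groups of 4 arrays examined, 1 array lay far from the other 3. Its gap to the nearest, divided by the group's range, was above the 95% critical value of Dixon's test for 4 values. For independent groups, chance sets apart about 1 in 20. The groups here are different genes on the same arrays, so they are not independent and the count does not test that rate. Groups of 3 (T0901317) were not examined. DMSO replicate 1 was the low array for pde6c (gap ratio 0.877; 5110 units against 6900 to 7200 in the other DMSO arrays), rlbp1a (0.847; 543 against 861 to 936), rom1b (0.877; 1770 against 2400 to 2510) and rx2 (0.923; 253 against 320 to 326). GW3965 replicate 1 was low for gnat1 (0.86; 1260 against 1450 to 1480), rlbp1b (0.91; 646 against 797 to 814) and rbp3 (0.873; 3290 against 3820 to 3910). GW3965 replicate 2 was high for pde6c (0.9; 6980 against 5180 to 5330) and rlbp1a (0.918; 913 against 685 to 702).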

How the results depend on the processing

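The rod and cone medians moved by less than the spread between arrays in all 22 alternatives of each comparison: -0.38 to -0.21 (rod) and -0.51 to -0.26 (cone) for T0901317 against DMSO, -0.18 to 0.01 and -0.32 to -0.12 for GW3965 against DMSO, and -0.24 to -0.14 and -0.31 to -0.09 for T0901317 against GW3965. The spread used here was the pooled SD of array medians, 0.17 for rod and 0.21 for cone genes. Leaving out 1 array moves a group mean by only part of that group's SD, so the yardstick is weak for those alternatives. The GW3965 rod median was above 0 in 1 alternative. The count of cascade genes called for T0901317 against DMSO (1) was 2 with normexp (prph2b added, adjusted p = 0.0408), 2 with the mean over probes (grk7a added, 0.0181), 2 with every probe, 3 with trend and robust eBayes (arr3a 0.0455 and grk7a 0.0392 added), and 0 with the left-out array put back, with only the 2 groups compared and with the replicate block (pairing by number). Leaving out 1 array gave 0 to 7 for T0901317 against DMSO, 0 to 3 for GW3965 against DMSO and 0 to 1 for T0901317 against GW3965. For GW3965 against DMSO (0) it was 2 with every probe. Between the agonists (0) it was 1 with normexp (rpe65a, adjusted p = 0.0435) and 1 with only the 2 groups compared (nr2e3, 0.0411); the replicate block called 0. Where the count did not move, the gene could: without DMSO replicate 2 it was nr2e3 (0.0268), without T0901317 replicate 3 rpe65a (0.0451) and without T0901317 replicate 4 grk7a (0.0205). The causes were not tested. Of 2961 values of single genes, 2759 kept direction and side of the threshold, 88 changed sign without a call in either setting (adjusted p at least 0.446), 82 lost a call, 32 gained one and 0 changed sign while called. Of 26 genes with several probes, all probes shared a sign in 20 for T0901317 and 19 for GW3965.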

Other observations

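The left-out T0901317 replicate 2, which is in no comparison above, had a median log2 deviation from the DMSO mean of -0.29 over rod genes, -0.51 over cone genes, -0.33 over opsins and 0.18 over bipolar markers, on an array whose median over all genes tested was itself 0.18. Its signals were 591 units for rcvrna, 8010 for arr3a, 1490 for grk7a, 1800 for sagb, 1040 for gnat1 and 89.5 for nr2e3. On that array 89.78% of probes were well above background, beside 78.83% to 83.18% on the 11 arrays used. Its correlation with the other T0901317 arrays was 0.9512 to 0.9571. Some dim genes read high on it, such as guca1b with 44.1 units against 2.79 to 5.64 on the other T0901317 arrays. Its nr2e3 value is therefore no added support for a rise.

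In the pineal list, whose organ also holds photoreceptors, the melatonin pathway gene aanat2 rose for both agonists and kept its calls in all 22 alternatives, with estimates of 1.70 to 1.87 for T0901317 and 1.63 to 1.85 for GW3965. Of the 11 genes measured, 2 rose for T0901317 (aanat2 and aanat1, the second by 0.66 ± 0.14, adjusted p = 0.0428, a call that ended in 12 of 21 alternatives, among them the omission of any 1 array but DMSO replicate 1 and GW3965 replicates 2 and 4, at adjusted p 0.0563 to 0.141) and 2 for GW3965 (aanat2 and lhx4, the second by 0.49 ± 0.11, adjusted p = 0.0261, a call that ended in 10 of 22, among them the omission of DMSO replicate 1, 3 or 4 or GW3965 replicate 1, 2 or 4, at adjusted p 0.052 to 0.0668). In the Müller glia list of 9 genes, apoeb rose for GW3965 (0.52 ± 0.08, adjusted p = 0.00544), and 0 passed for T0901317. In the lens list of 22 genes, 2 rose for T0901317 (crygs2 and crygs3), and for GW3965 crygs2 rose while crygm3 and crygs3 fell. Beside the counts of these 3 lists, of all 23645 genes tested 373 were called higher and 236 lower for T0901317. For GW3965, 289 were called higher and 1056 lower.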
